A study of Mus musculus with 4 samples.

Results

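Regions bound by CTCF in the space between genes were examined in cardiac myocytes of the mouse. A region counted when its summit, the position of the highest read density, lay outside all protein-coding genes. It also had to lie more than 1 kb and up to 100 kb from the nearest such gene and more than 1 kb from both ends of every long non-coding RNA (lncRNA) gene. This position rule, which used no measured strength, held for 5966 of 16128 regions (36.99%) in the list labelled CTCF knockout and for 6941 of 20043 regions (34.6%) in the control list. They are called intergenic regions here, and covered 1.54 Mb in the list labelled CTCF knockout and 1.81 Mb in the control list.

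CTCF is a zinc-finger protein that binds a long, well conserved DNA motif. Cohesin that extrudes a DNA loop is halted at bound CTCF, and pairs of such sites form the anchors of loops and the borders of contact domains. Sites between genes are known for insulating an enhancer from the wrong promoter, as at the imprinted H19 and Igf2 genes.

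Chromatin was precipitated with a CTCF antibody and sequenced (ChIP-seq) from isolated left ventricular myocytes of the C57BL/6 strain. The myocytes of 3 hearts labelled CTCF knockout were pooled for 1 library, and those of 3 control hearts for the other. The labels name no allele, Cre driver, age or time after deletion, and region lists hold no expression values by which the cell type could be checked. With 1 library per genotype no test between genotypes was possible, and every interval given is a 95% interval for counting error between these libraries.

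Both lists held CTCF regions at the Ctcf gene itself, none of them intergenic by the rule. The region inside Ctcf (chromosome 8, 105636655 to 105636962 in the list labelled CTCF knockout) had a fold enrichment over local background of 5.94 in the library labelled CTCF knockout and 8.47 in the control library. Because a ChIP region near Ctcf does not measure the deletion, the library is called by its label throughout. Fold enrichments are the authors' values, each relative to its own library, so no change is read between lists. The lists give no depth. The lowest local background was 0.851 reads in the list labelled CTCF knockout and 1.006 reads in the control list, and what this difference did to the counts that follow was not tested.

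The sequence under the summit could be read where a RefSeq promoter window (250 bases before to 50 bases after a gene start, GRCm38.p6) held it. For 8 windows this was so, all at starts within lncRNA genes, and 5 of these windows held a summit in both lists. They are the only intergenic regions for which sequence was used here. A loose form of the CTCF core was searched on both strands, written as CC, any 3 bases, AG, any 2 bases and GGC. It matched 2 of the 8 windows, beside 8.61% of the 32817 RefSeq windows searched and 6.28% of the 11587 windows of lncRNA genes. The first pair of windows here holds the matches, in capitals, both shared between the lists. The next one lies between H19 and Igf2 and is also shared, the one after it was called only in the list labelled CTCF knockout and the last only in the control list. The last 3 have no match to these letters within the window, which says nothing about CTCF there. All are written 5′ to 3′ on the strand of the lncRNA.
Gm13404: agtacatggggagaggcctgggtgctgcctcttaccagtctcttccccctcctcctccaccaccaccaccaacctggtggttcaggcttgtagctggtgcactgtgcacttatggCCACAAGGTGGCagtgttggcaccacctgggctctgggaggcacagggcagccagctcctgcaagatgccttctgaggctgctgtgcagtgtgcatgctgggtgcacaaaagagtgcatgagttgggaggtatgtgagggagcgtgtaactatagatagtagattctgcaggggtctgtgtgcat
Gm46229: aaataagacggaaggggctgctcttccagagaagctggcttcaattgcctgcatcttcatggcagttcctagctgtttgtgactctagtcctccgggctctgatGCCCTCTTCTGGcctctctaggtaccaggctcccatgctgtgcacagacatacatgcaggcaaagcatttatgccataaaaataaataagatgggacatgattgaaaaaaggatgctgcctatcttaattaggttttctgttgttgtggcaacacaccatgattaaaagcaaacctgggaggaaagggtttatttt
Gm33148: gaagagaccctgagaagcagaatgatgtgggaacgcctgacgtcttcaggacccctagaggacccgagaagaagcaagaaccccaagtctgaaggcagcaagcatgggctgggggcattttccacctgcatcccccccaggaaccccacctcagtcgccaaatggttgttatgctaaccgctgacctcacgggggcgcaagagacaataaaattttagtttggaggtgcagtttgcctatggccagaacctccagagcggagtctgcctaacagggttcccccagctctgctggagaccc
Gm33089: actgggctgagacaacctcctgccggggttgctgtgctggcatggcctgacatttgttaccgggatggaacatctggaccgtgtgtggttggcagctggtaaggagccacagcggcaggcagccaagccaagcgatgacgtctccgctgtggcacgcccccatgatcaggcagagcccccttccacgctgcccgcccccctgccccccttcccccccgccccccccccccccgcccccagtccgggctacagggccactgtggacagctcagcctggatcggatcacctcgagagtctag
2010204K13Rik: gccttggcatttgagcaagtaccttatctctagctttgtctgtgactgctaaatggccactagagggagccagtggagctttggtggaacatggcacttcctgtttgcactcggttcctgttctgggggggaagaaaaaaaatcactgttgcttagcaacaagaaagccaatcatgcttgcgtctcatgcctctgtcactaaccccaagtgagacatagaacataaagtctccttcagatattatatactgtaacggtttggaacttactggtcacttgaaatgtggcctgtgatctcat
The Gm13404 window (chr2:33973474-33973773, plus strand) lay 85.6 kb from Mvb12b, a gene of endosomal sorting. Its region had a fold enrichment of 13.2 (33 reads at the summit) in the library labelled CTCF knockout and 18.5 (37 reads) in the control library. The centre of its match lay 2 bases from the summit labelled CTCF knockout and 3 bases from the control summit. The Gm46229 window (chr10:67311383-67311682, plus strand) lay 26.1 kb from Nrbf2, an autophagy gene. Fold enrichment there was 11.01 with 20 reads in the library labelled CTCF knockout and 9.92 with 22 reads in the control library. Its match lay 41 bases from the summit labelled CTCF knockout and 15 bases from the control summit.

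The Gm33148 window (chr7:142610569-142610868, plus strand) lay 40.03 kb from Igf2, an imprinted growth factor gene. Its region had 6.83 (13 reads) in the library labelled CTCF knockout and 9.95 (20 reads) in the control library. The Gm33089 window (chr17:56487497-56487796, plus strand) lay 11.2 kb from Ptprs, a receptor tyrosine phosphatase gene, and its region was called only in the library labelled CTCF knockout, at 5.94 with 10 reads. The 2010204K13Rik window (chrX:7420998-7421297, minus strand) lay 45.4 kb from Usp27x, a ubiquitin protease gene, and its region was called only in the control library, at 8.28 with 16 reads.

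Intergenic regions were fewer in the library labelled CTCF knockout, though less so than regions inside protein-coding genes. The ratio of their numbers, 5966 in the list labelled CTCF knockout over 6941 in the control list, was 0.860 (interval 0.830 to 0.890). For all other regions it was 0.776 (10162 over 13102, interval 0.756 to 0.796). Inside protein-coding genes the ratio was 0.757 (interval 0.735 to 0.780), with 7645 regions in the list labelled CTCF knockout and 10094 in the control list. Over 100 kb from any protein-coding gene it was 0.851 (interval 0.769 to 0.943), and its interval overlaps that of the intergenic regions. Within 1 kb outside a protein-coding gene (0.823) and at lncRNA ends (0.846) the intervals also overlapped it. All these intervals take the 2 counts as independent, although 5122 of the 6941 intergenic control regions overlapped a region of the other list. Whether 2 intervals overlap is therefore no test of a difference between classes.

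**Figure D1:**
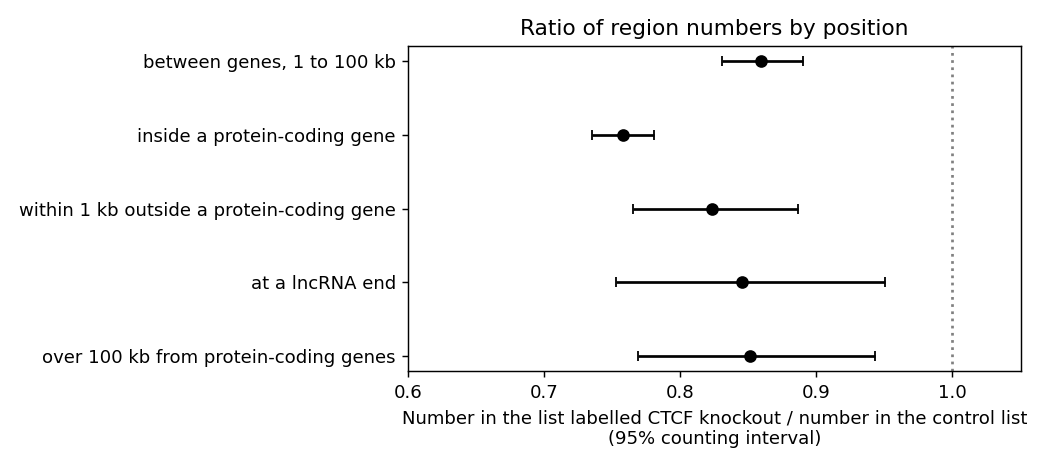
Number of regions in the list labelled CTCF knockout divided by the number in the control list, for 5 classes of position. Points are ratios and bars are 95% counting intervals. The intergenic ratio (0.860) lies above that inside protein-coding genes (0.757), and the bars of these classes do not overlap.

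Regions were called shared when they overlapped a region of the other list by at least 1 bp. Of the intergenic regions labelled CTCF knockout, 5122 (85.9%, interval 84.9 to 86.7) overlapped a control region, where 85.8% of all regions of that list did. The other 844 (14.1%, interval 13.3 to 15.1) overlapped none, beside 14.2% of the whole list. That share was 25.04% when a reciprocal overlap of at least 50% was required. It was 0.963% for the strongest 25% of the list labelled CTCF knockout, set against the whole control list. Of the control intergenic regions, 5122 (73.8%, interval 72.7 to 74.8) overlapped a region labelled CTCF knockout, where 69% of all control regions did. The other 1819 were called only in the control library (26.2%), beside 31% of the whole control list. The overlapping region of the other list was itself intergenic for 5107 of the shared control regions, and the summits of a pair lay a median of 26 bp apart.

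The shared percentage of intergenic regions differed from that of some classes of position, and for others the interval of the difference included 0. These intervals count each region of a library as independent. Shared control regions were 7.32 percentage points more frequent between genes than among all other control regions (interval 5.99 to 8.62), and 8.72 points more frequent than inside protein-coding genes (interval 7.32 to 10.1). The first difference was smaller under other settings, at 4.31 points with lists of equal length and 4.72 when −log10 q had to reach 5. With a lower limit of 5 kb from genes and lncRNA ends it was 4.497 points. That setting set 4231 intergenic regions against 15812 others, among them the intergenic regions it had dropped. The first difference was 0.750 points in the strongest 25% of the control list, set against the whole other list (interval -0.294 to 1.71). Against regions within 1 kb outside a protein-coding gene the control difference was 0.882 points (interval -1.50 to 3.35), and against lncRNA ends -2.30 points (interval -5.67 to 1.37). In the list labelled CTCF knockout the shared percentage between genes differed from that of all other regions of the list by 0.102 points (interval -1.02 to 1.21). There it was lower than within 1 kb outside a protein-coding gene (difference -4.15 points, interval -5.92 to -2.20) and lower than at lncRNA ends (difference -3.19 points, interval -5.76 to -0.0863). The share was also 10.2 points higher between genes than over 100 kb from genes in the control list (interval 6.82 to 13.8), and 10.05 points higher in the list labelled CTCF knockout (interval 6.85 to 13.5).

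The difference in the control list was also measured at like strength, within 5 bins of equal size of the whole list ranked by fold enrichment. In the weakest bin, 42.4% of control intergenic regions were shared (517 of 1219), against 32.5% of the others (908 of 2790), a difference of 9.87 points (interval 6.60 to 13.1). In the next bins, by rising strength, the difference was 8.08 points (interval 4.78 to 11.3), 4.39 points (interval 1.48 to 7.22) and 1.65 points (interval -0.416 to 3.64). In the strongest bin, from a control fold enrichment of 10.1 up, 98.1% of intergenic regions and 97.4% of the others were shared. Most of the others lay inside protein-coding genes, in the weakest bin 2203 of the 2790, and 30.6% of these 2203 were shared. Intergenic regions were not compared by bin with the others outside protein-coding genes. The list labelled CTCF knockout showed a difference of the opposite sign in its weakest bin, with 63.5% of intergenic regions and 67.2% of the others shared (-3.73 points, interval -7.18 to -0.307). Of the 419 unshared intergenic regions in that bin, 20 lay beyond Gm52481 on chromosome Y and 11 between Mid1 and Asmt on X. Local background was raised in both places, and the difference without them was not computed. In the other 4 bins of this list the differences lay between 0.052 and 0.575 points, with intervals that included 0.

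**Figure D2:**
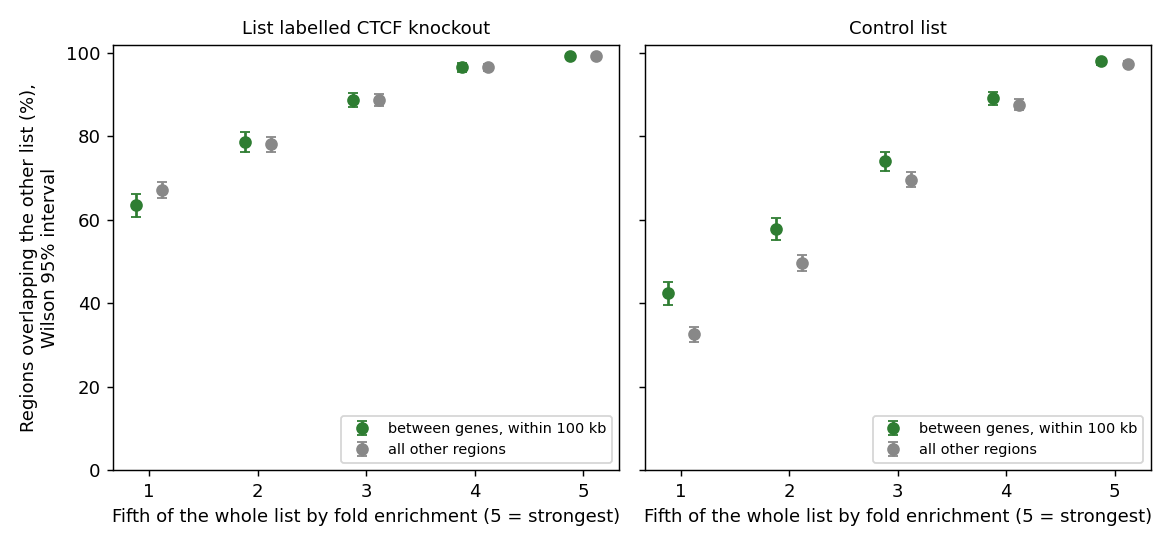
Percentage of regions that overlap the other list (vertical axis) in 5 bins of equal size of each list by fold enrichment (horizontal axis, 5 the strongest), for intergenic regions and all other regions of the list. The left panel is the list labelled CTCF knockout, the right panel the control list, and bars are Wilson 95% intervals. In the weakest bin of the control list intergenic regions lie at 42.4% and the others, most of them inside protein-coding genes, at 32.5%.

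Shared intergenic regions were the stronger and wider ones in both lists. In the list labelled CTCF knockout the shared ones had a median fold enrichment of 7.75, a median of 16 reads at the summit and a median width of 241 bp. Those called only there had 5.40, 10 reads and 166 bp. In the control list the shared ones had medians of 8.16, 18 reads and 255 bp, and those called only there had 5.48, 11 reads and 174 bp. Summit pileups over all intergenic regions had a median of 15 reads in the list labelled CTCF knockout and of 16 in the control list.

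CTCF regions thinned out with distance from genes in both libraries. Sequence that meets the position rule totals 818.2 Mb, and it held 7.29 regions per Mb in the library labelled CTCF knockout and 8.48 per Mb in the control library. From 1 to 5 kb away there were 14.5 regions per Mb in the library labelled CTCF knockout (1600 regions, interval 13.8 to 15.2) and 16.5 in the control library (1827 regions, interval 15.8 to 17.3). At 10 to 25 kb the density was 8.27 in the library labelled CTCF knockout and 9.498 in the control library. At 50 to 100 kb they were 2.84 (618 regions, interval 2.62 to 3.07) in the library labelled CTCF knockout and 3.51 (765 regions, interval 3.27 to 3.77) in the control library. Unassembled or unmappable sequence was not taken out of these lengths.

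**Figure D3:**
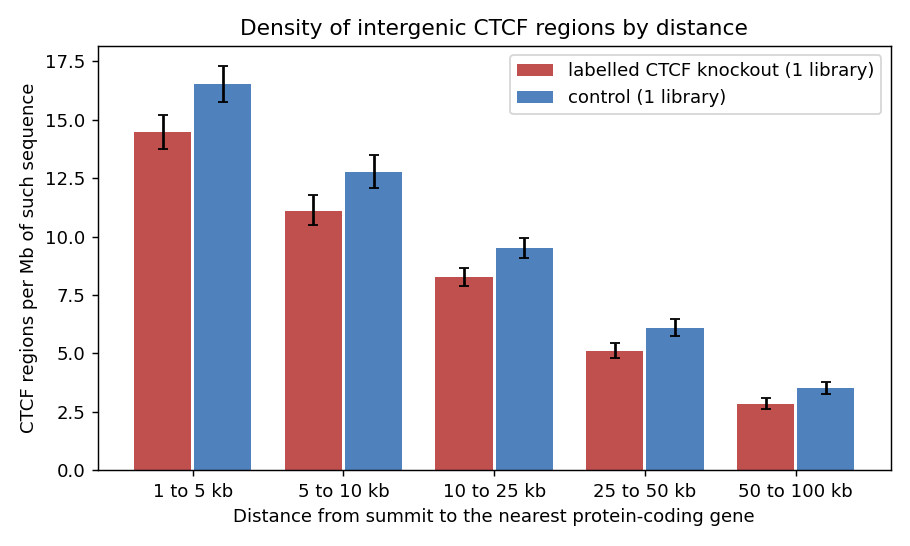
CTCF regions per Mb of sequence (vertical axis) by distance from the nearest protein-coding gene (horizontal axis), with 95% Poisson intervals. Bars of the library labelled CTCF knockout stand left of those of the control library. Density is highest at 1 to 5 kb (14.5 per Mb in the library labelled CTCF knockout, 16.5 in the control library) and lowest at 50 to 100 kb (2.84 and 3.51 in these libraries).

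The shared percentage of control regions was lower far from genes. It was 76.1% at 1 to 5 kb (interval 74.1 to 77.98), 75.1% at 5 to 10 kb, 74.2% at 10 to 25 kb, 72.3% at 25 to 50 kb and 67.2% at 50 to 100 kb (interval 63.8 to 70.4), and intervals of neighbouring bins overlapped. The farthest minus the nearest bin was -8.89 points (interval -12.8 to -5.08). In the strongest 25% of the control list, set against the whole other list, it was 0.337 points, of the opposite sign (interval -3.47 to 2.68). The 25 to 50 kb bin minus the 1 to 5 kb bin was -3.75 points. Median control fold enrichment was 6.82 in the farthest bin and 7.36 in the nearest. Within 3 equal groups of the intergenic control regions by fold enrichment, the same difference was -4.90 points in the weakest (interval -11.6 to 1.94), -7.70 in the middle (interval -14.5 to -1.36) and -1.88 in the strongest (interval -5.87 to 0.921). In the list labelled CTCF knockout the farthest bin had 83.7% shared and the nearest 86.8%, a difference of -3.16 points (interval -6.65 to 0.065).

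**Figure D4:**
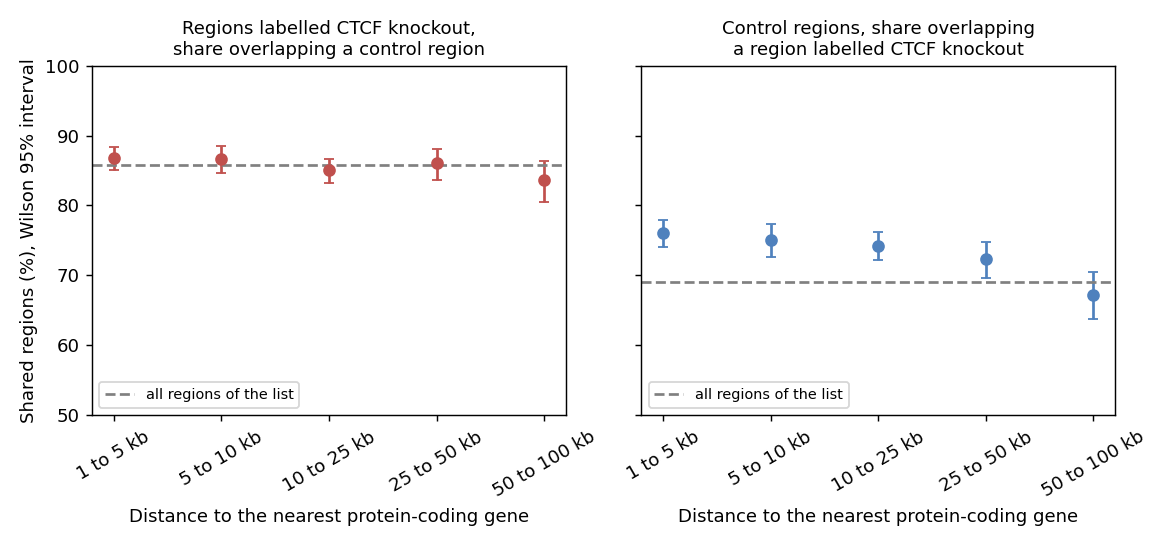
Percentage of intergenic regions that overlap the other list (vertical axis, from 50 to 100%) by distance to the nearest protein-coding gene. The left panel is the list labelled CTCF knockout and the right panel the control list, with Wilson 95% intervals and the value of each whole list as a dashed line. Control regions stand at 76.1% at 1 to 5 kb and at 67.2% at 50 to 100 kb.

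At each limit of the position rule, the intervals of the shared percentages just inside and just outside it overlapped. In the control list, 71.0% of the 314 regions from 1 to 1.5 kb were shared (interval 65.8 to 75.8). Just outside the rule, at 0.5 to 1 kb, 74.7% of 368 were (interval 70.0 to 78.9). At the far limit, 70.97% of 93 control regions at 90 to 100 kb were shared (interval 61.1 to 79.2). At 100 to 110 kb it was 65.1% of 83 (interval 54.3 to 74.4). In the list labelled CTCF knockout the counts at these 4 positions were 259, 339, 84 and 68, with 85.7%, 83.8%, 78.6% and 83.8% shared.

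Gene direction was known for the nearest gene of most regions. In the list labelled CTCF knockout 2387 intergenic regions lay upstream of their nearest gene and 2312 downstream, and in the control list 2800 lay upstream and 2667 downstream. Relative to the sequence available, the downstream side was denser near genes. At 1 to 5 kb there were 15.6 regions per Mb downstream (interval 14.4 to 16.8) and 12.9 upstream (interval 11.9 to 14.02) in the library labelled CTCF knockout. In the control library there were 17.9 downstream (interval 16.6 to 19.2) and 14.8 upstream (interval 13.7 to 15.998). Beyond 25 kb the order was the opposite, with intervals that overlapped. Of the upstream control regions 72.5% were shared and of the downstream ones 75.2%, a difference of -2.68 points (interval -5.003 to -0.346). In the list labelled CTCF knockout this difference was -1.17 points (interval -3.16 to 0.828).

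Among gaps where both gene directions were known, those between genes that point away from each other held the most regions for their length. Gaps without a known direction are left out here. They held 2123 intergenic regions in the list labelled CTCF knockout and 2448 in the control list. Between genes that point away from each other the density was 8.004 regions per Mb (interval 7.55 to 8.48) in the library labelled CTCF knockout and 9.29 (interval 8.80 to 9.80) in the control library. Between genes that point towards each other it was 6.67 (interval 6.18 to 7.20) in the library labelled CTCF knockout and 7.91 (interval 7.37 to 8.48) in the control library. Between genes that point the same way it was 6.74 in the library labelled CTCF knockout and 7.88 in the control library. The shared percentage of control regions was 74.4% between facing genes and 72.9% between genes pointing apart, a difference of 1.51 points with an interval from -2.40 to 5.32.

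Many intergenic regions lay within the body of a lncRNA gene, away from its ends. There were 795 in the list labelled CTCF knockout, of which 88.6% were shared (interval 86.2 to 90.6), and 85.4% of the regions outside lncRNAs were. That is a difference of 3.12 points (interval 0.539 to 5.37). In the control list there were 933, with 75.3% shared inside lncRNAs and 73.6% outside, a difference of 1.80 points (interval -1.27 to 4.68).

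Gaps between neighbouring protein-coding genes, chromosome ends included, showed how shared regions were spread. Of 16780 gaps with sequence that meets the rule on the 50 bp grid, 3987 held a region in the list labelled CTCF knockout (23.8%) and 4497 in the control list (26.8%). Counting also gaps where the grid found no such sequence, 3990 gaps held a region in the list labelled CTCF knockout and 4501 in the control list. Both lists had a region in 3680 gaps, 310 had one only in the list labelled CTCF knockout and 821 only in the control list. Of the 2929 gaps with a single control region, it was shared in 2125 (72.6%). Of the 1572 gaps with at least 2 control regions, 788 had all of them shared, 706 had some shared and 78 had none. Control regions of multi-region gaps were shared at 74.7%.

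The gap between Wnt7b, a secreted Wnt ligand gene, and Ppara, the nuclear receptor gene that controls fatty acid oxidation (chromosome 15), held 6 regions in the library labelled CTCF knockout and 10 in the control library. All 6 regions labelled CTCF knockout were shared, and had fold enrichments of 10.6, 10.9, 6.99, 6.48, 13.2 and 9.73 in order from Wnt7b. Their control partners had 7.98, 8.87, 8.09, 7.77, 7.72 and 12.5. The other 4 regions of the control library had 6.37, 4.49, 4.85 and 4.99. All 4 were thus weaker than each of the shared control regions in that gap.

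The gap between Jak1, a cytokine receptor kinase gene, and Ak4, a mitochondrial adenylate kinase gene (chromosome 4), held 4 control regions and none in the library labelled CTCF knockout. Their control fold enrichments were 6.98, 7.30, 6.48 and 6.98, with 13, 14, 12 and 13 reads at the summit. The gap between Adamts3, a procollagen protease gene, and Cox18, a gene of mitochondrial inner membrane assembly (chromosome 5), held 1 region in the library labelled CTCF knockout and 4 in the control library, none of them overlapping. The region labelled CTCF knockout had 7.02, and the control ones lay between 4.75 and 6.47. The former ended at 90203564, just before 1 of these control regions, which started at 90203586. Between Adcy2, an adenylate cyclase gene, and Tent4a (chromosome 13) the library labelled CTCF knockout had 1 region and the control library 5, of which 1 was shared. Each of these 3 gaps held 4 control-only regions, the highest number in any gap between 2 protein-coding genes, so that this count follows from how they were chosen. In all 6 gaps had that number, Wnt7b to Ppara among them, and these 3 were taken from the tie for having the fewest control regions, then by name.

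**Figure D5:**
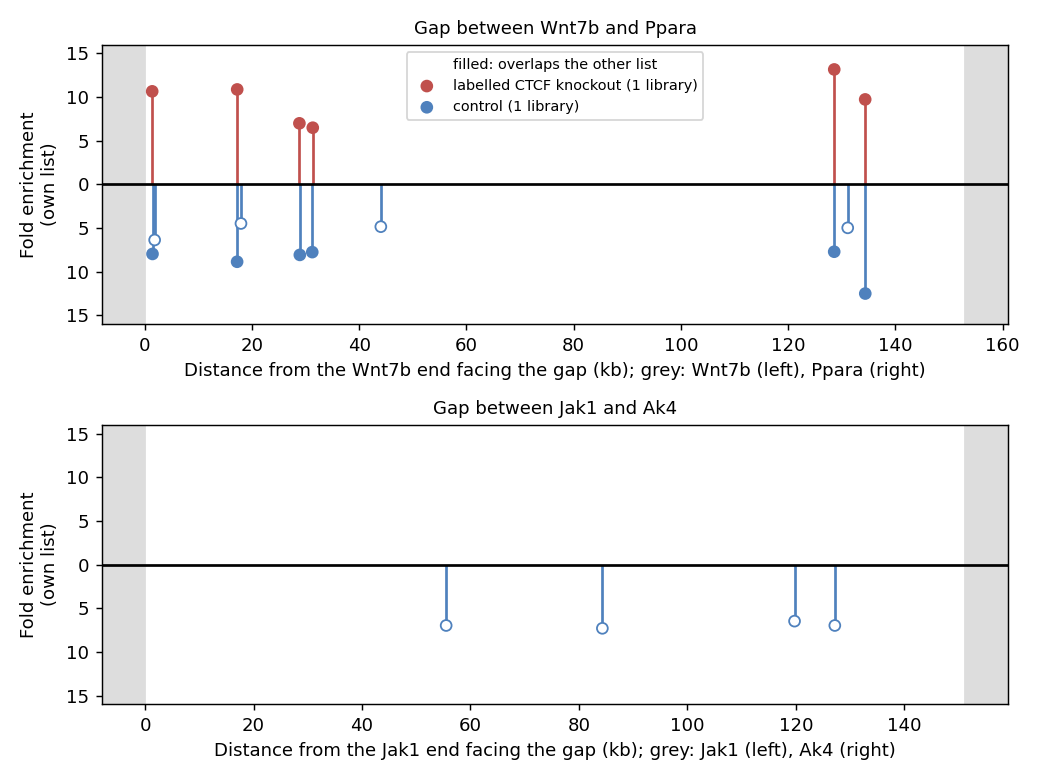
Intergenic CTCF regions in 2 gaps, plotted by distance from the lower-coordinate gene in kb (horizontal axis) and fold enrichment in their own list (vertical axis). The library labelled CTCF knockout is drawn upwards and the control library downwards, and filled circles mark regions that overlap the other list. The Wnt7b to Ppara gap has 6 regions in the library labelled CTCF knockout and 10 in the control library, and the Jak1 to Ak4 gap has 0 and 4.

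The strongest control regions between genes were all present in both libraries. Ranked by control fold enrichment, the first 8 were shared. The region 1.75 kb upstream of Rfx7, a transcription factor gene (chromosome 9, 72530241 to 72530603), had 25.6 in the library labelled CTCF knockout and 35.5 in the control library. The region 2.10 kb upstream of Gtf3c5, a gene for a subunit of the RNA polymerase III factor TFIIIC (chromosome 2, 28585198 to 28585528), had 23.8 in the library labelled CTCF knockout and 29.7 in the control library. Beside Dgat2, which makes triglycerides (chromosome 7, 99151188 to 99151733), the values were 27.02 in the library labelled CTCF knockout and 28.4 in the control library.

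Most of these strongest regions lay within 10 kb of a gene, but not all. The region between Pik3cg, a phosphoinositide kinase gene, and Ccdc71l (chromosome 12, 32291977 to 32292426) lay 83.5 kb from the first and 86.6 kb from the second. It had 21.5 (43 reads) in the library labelled CTCF knockout and 27.4 (54 reads) in the control library. The region 19.4 kb upstream of Th, the rate-limiting enzyme gene of catecholamine synthesis, faces Ascl2, an imprinted transcription factor gene 47.4 kb away (chromosome 7, 142919273 to 142919601). It had 20.3 in the library labelled CTCF knockout and 26.5 in the control library. The region 6.59 kb downstream of Hif1an, which codes for the asparagine hydroxylase that restrains HIF, had 13.4 in the library labelled CTCF knockout and 27.8 in the control library (chromosome 19, 44582679 to 44583004). The region 4.34 kb from Stmn1, a gene of microtubule turnover, had 18.6 in the library labelled CTCF knockout and 27.2 in the control library. The region 8.82 kb downstream of Glrx3, a glutaredoxin gene, had 22.2 in the library labelled CTCF knockout and 26.4 in the control library.

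The strongest control-only intergenic regions were weaker, from 13.4 near Wfdc21 down to 12.5. At 12.5, with 24 reads, stood one 25.2 kb downstream of Eif3f, a translation initiation factor gene, within the lncRNA Gm32309 (chromosome 7, 108967027 to 108967280). Another with the same value lay 35.4 kb downstream of Snx13, a sorting nexin gene (chromosome 12, 35182738 to 35182982). The strongest regions unique to the list labelled CTCF knockout lay 1.03 kb from Has2 and 8.24 kb downstream of Igfn1, each at 11.9 with 21 reads. Those 6.62 kb from Caly and 11.9 kb from Calb2, the calretinin gene, had fold enrichments of 11.7 (23 reads) and 11.6 (21 reads). A region 2.36 kb upstream of Topbp1, a DNA damage response gene, had 10.8. One 4.16 kb upstream of Hif3a, a member of the hypoxia-inducible factor family, had 10.3 (chromosome 7, 17066453 to 17066701).

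Intergenic regions were then grouped by their nearest gene, using 13 lists of genes. Because the lists hold few regions each, their intervals are wide, and the shares stand beside 73.8% for all control intergenic regions and 85.9% for all those labelled CTCF knockout. For genes of cardiac transcription factors 22 of 23 regions labelled CTCF knockout were shared, and 22 of 30 control regions (73.3%, interval 55.6 to 85.8). The strongest shared one lay 28.4 kb from Tbx3, between it and Tbx5, both T-box factors of the heart, with 11.7 in the library labelled CTCF knockout and 16.8 in the control library. The strongest control-only one lay 6.54 kb upstream of Hand2, a factor of right ventricle development, within the lncRNA Hand2os1, with 10.97.

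Genes of contraction and calcium handling had fewer regions. Near sarcomere and Z-disc genes 9 of 10 regions labelled CTCF knockout and 9 of 10 control regions were shared (interval 59.6 to 98.2%). The strongest lay 11.8 kb downstream of Myl3, the ventricular essential light chain gene, with 14.2 in the library labelled CTCF knockout and 16.5 in the control library. The control-only one lay near Myom2, a gene of the sarcomere's M-band (6.98). Near calcium and channel genes 14 of 15 regions labelled CTCF knockout and 14 of 20 control regions (70.0%, interval 48.1 to 85.5) were shared. Kcna5, a potassium channel gene, had a shared region 16.6 kb upstream (9.51 in the library labelled CTCF knockout, 11.96 in the control library) and a control-only one 34.5 kb downstream (7.48).

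For fatty acid and energy metabolism 7 of 7 regions labelled CTCF knockout and 7 of 10 control regions were shared. The strongest stood 18.7 kb upstream of Ppara, with 9.73 in the library labelled CTCF knockout and 12.5 in the control library, and the strongest of the 3 control-only ones, 14.1 kb upstream of Mlycd, the malonyl-CoA decarboxylase gene, had 7.77. For stress and fetal genes 10 of 12 regions labelled CTCF knockout and 11 of 12 control regions were shared. A region 1.41 kb upstream of Gadd45b, a stress response gene, had 6.13 in the library labelled CTCF knockout and 14.6 in the control library. The control-only one lay 1.17 kb upstream of Jun (5.90), an immediate early transcription factor gene.

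The lists of developmental genes, which are also the longest at 43 signal and 52 transcription factor genes, had many intergenic regions. For secreted developmental signals 26 of 29 regions labelled CTCF knockout and 26 of 36 control regions were shared (72.2%, interval 56.01 to 84.2). A region 9.69 kb from Fgf20, a fibroblast growth factor gene, had 19.5 in the library labelled CTCF knockout and 18.01 in the control library, and one 51.9 kb from Bmp2, a bone morphogenetic protein gene, was called only in the control library (7.98). For developmental transcription factors of other tissues 33 of 34 regions labelled CTCF knockout and 33 of 48 control regions were shared (68.8%, interval 54.7 to 80.1). A region 4.30 kb upstream of Sox4 had 14.2 in the library labelled CTCF knockout and 18.4 in the control library.

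The remaining lists were small. For CTCF and cohesin genes 2 of 2 regions labelled CTCF knockout and 2 of 4 control regions were shared. One lay 3.11 kb downstream of Smc3, a cohesin subunit gene, with 6.24 in the library labelled CTCF knockout and 10.4 in the control library. For housekeeping genes 7 of 9 regions labelled CTCF knockout and 6 of 9 control regions were shared. Among markers of other heart cell types, the fibroblast list had 2 of 5 regions labelled CTCF knockout and 2 of 6 control regions shared, and the endothelial list 10 of 11 labelled CTCF knockout and 10 of 14 control regions. The immune list had 2 of 2 in both libraries, and the smooth muscle and pericyte list had 0 of 1 in the library labelled CTCF knockout and no control region. The strongest of them lay near Pecam1, an endothelial adhesion gene, with 11.3 in the library labelled CTCF knockout and 12.9 in the control library.

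The neighbourhood of H19, an imprinted lncRNA gene, was described after its values had been seen. In the gap between Mrpl23 and Igf2 (chromosome 7), the library labelled CTCF knockout had regions 2.15 and 2.43 kb from the higher-coordinate end of H19, with fold enrichments of 5.05 and 5.94. The control library had regions 2.61 and 3.63 kb from that end, with 6.75 and 3.87. The 2.43 kb and 2.61 kb regions overlapped each other, and the others were each called in 1 library only. The region under the Gm33148 window stood 32.6 kb from H19 in both libraries. Beyond Igf2, in the gap before Ins2, a shared region had 6.34 in the library labelled CTCF knockout and 7.75 in the control library.

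By chromosome, the shared percentage of intergenic regions lay in a narrow range on the autosomes. It ran from 81.5% (chromosome 13) to 90.4% (chromosome 2) in the list labelled CTCF knockout and from 68.8% (chromosome 5) to 78.4% (chromosome 7) in the control list. On X it was 70.2% of 114 regions labelled CTCF knockout (interval 61.2 to 77.8) and 64.3% of 126 control regions (interval 55.6 to 72.1). A single gap of raised local background, between Mid1 and Asmt, held 19 of these regions labelled CTCF knockout (8 shared) and 9 control ones (8 shared). The share on X without this gap was not computed. Density on X was 1.76 intergenic regions per Mb in the library labelled CTCF knockout and 1.95 in the control library. The densest chromosome was 11, with 13.6 per Mb in the library labelled CTCF knockout and 16.1 in the control library. Median summit pileup on X was 12 reads in the library labelled CTCF knockout and 13 in the control library, below the medians of 15 and 16 over all intergenic regions, and its part in the lower share was not tested.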

How the data were processed

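CTCF ChIP-seq regions of 1 library labelled CTCF knockout and 1 control library were used; the 2 input samples were not analysed here. The submitters' processing notes name mm10, MACS2, SAMtools 0.1.19 and Bowtie2 2.2.6, and no settings. Each deposited list gives, per region, a fold enrichment (a ratio over local background), a summit, a score, a −log10 q and a −log10 p. All are the authors' values, compared only inside the list they belong to. Depth is unknown. Summit pileups were solved from fold enrichment and −log10 p, taking fold as (pileup + 1) / (background + 1) and p as an upper Poisson tail. The deposited −log10 p was matched within 0.001 by an integer pileup at every intergenic region, and this step was tested on simulated data.

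Gene spans came from a RefSeq table (GRCm38.p6, the assembly called mm10), with 21887 protein-coding and 12727 lncRNA genes. Strand came from RefSeq promoter windows and was known for 79.9% of protein-coding genes. Available sequence was measured on a 50 bp grid. Intervals are Wilson for shares (turned into odds for ratios of numbers), Newcombe for differences and exact Poisson for densities. They cover counting error only.

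Named regions were the 8 strongest shared and 8 strongest control-only ones, the 6 strongest called only in the list labelled CTCF knockout, 3 gaps with the most control and 3 with the most control-only regions, and the strongest per gene list. Of the 304 listed symbols all were matched. Members, lists and rules were chosen with earlier results of these data known. Some of the named regions appear only as counts. The tools were scipy 1.17.1, pandas 2.3.3 and numpy 2.4.6 under Python 3.11.15, with matplotlib 3.10.9 for plots.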

Additional observations from a re-analysis of the deposited data

How the results depend on the processing

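The values could change with the threshold, the overlap rule and the distance limits. Alternatives without X and Y, and without regions whose local background was over 2 times the lowest of their list, were chosen after the data were seen. No paired analysis was possible because there was 1 library a genotype. The strongest 25% of a list were set against the whole other list, not against its strongest 25%. The number labelled CTCF knockout over the control number was 0.891 when −log10 q had to reach 5 and 0.894 with a fold enrichment of at least 5, against 0.860. The share of control intergenic regions that were shared was 81.2% with lists of equal length, 72.6% with a lower limit of 5 kb, 64.4% with a reciprocal overlap of at least 50%, 97.2% in the strongest 25%, 70.004% with summits within 100 bp and 72.4% without raised backgrounds, against 73.8%. The share of regions labelled CTCF knockout with no control region was 16.1% with the −log10 q limit, 16.3% with the fold limit, 21.002% with equal lengths, 15.5% with the 5 kb limit, 25.04% with reciprocal overlap, 0.963% in the strongest 25% and 18.5% with summits within 100 bp, against 14.1%. The difference from other control regions was 4.72 points with the −log10 q limit, 5.40 with the fold limit, 4.31 with equal lengths, 4.497 with the 5 kb limit and 0.750 in the strongest 25% (interval -0.294 to 1.71), against 7.32. The 5 kb limit held for genes and lncRNA ends, and the intergenic regions it dropped were counted among the other control regions. The farthest minus the nearest distance bin was -3.75 points with an upper limit of 50 kb, where the bins are 25 to 50 kb and 1 to 5 kb, and 0.337 points, of the opposite sign, in the strongest 25% (interval -3.47 to 2.68), against -8.89. For these values the cause was not tested. The other alternatives tried stayed within the counting interval. Unknown depth limits all counts near the calling threshold.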

Other observations

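Some gaps with many intergenic regions on chromosomes 6, X and Y had a local background above that of most intergenic regions, whose median was 1.051 reads in the list labelled CTCF knockout and 1.075 in the control list. Between Gm40363 and Pdia4, a gene of protein folding in the endoplasmic reticulum (chromosome 6), the library labelled CTCF knockout had 12 regions and the control library 13. The strong ones there, with a fold enrichment over 9, numbered 8 in the library labelled CTCF knockout and 7 in the control library. Of the spacings between neighbouring summits of these, 5 of 7 in the library labelled CTCF knockout lay between 4.29 and 4.40 kb, and 5 of 6 in the control library between 4.25 and 4.41 kb. Local background at these regions was 7.49 to 11.3 reads in the library labelled CTCF knockout and 10.3 to 11.9 in the control library, and pileups were 94 to 134 reads in the library labelled CTCF knockout and 120 to 154 reads in the control library.

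Beyond Gm52481, the last protein-coding gene of chromosome Y in the table, the library labelled CTCF knockout had 40 intergenic regions, 20 of them shared, and the control library 22, with 21 shared. Between Mid1 and Asmt on chromosome X it had 19, with 8 shared, and the control library 9, with 8 shared. Median local background was 7.75 reads in the library labelled CTCF knockout and 6.50 in the control library beyond Gm52481. Between Mid1 and Asmt it was 11.3 reads in the library labelled CTCF knockout and 5.55 in the control library. On Y as a whole 62.9% of 62 intergenic regions labelled CTCF knockout (interval 50.5 to 73.8) and 93.3% of 45 control regions (interval 82.1 to 97.7) were shared. Intergenic regions with a local background over 2 times the lowest of their list numbered 650 in the list labelled CTCF knockout and 601 in the control list.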
